A study of Mus musculus with 4 samples.

Results

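Klf2, Klf3, Id3, Foxo1, Satb1, Bach2, Myb, Bcl11b, Gata3 and Runx1 are transcription regulators tied to quiescence and memory in T cells. These 10 genes were taken by name from 15301 genes listed in the single-cell RNA-seq matrices of colon intraepithelial lymphocytes (IELs) of mice, and each was listed in all 4 matrices. They were chosen with earlier results of these data known, so counts of members set beside all genes are descriptions only. The study sorted live CD3+ CD8alpha+ IELs from the colon by T-cell receptor, as TCRbeta+ (TCRb) or TCRgd, and made 1 library of each sort from each genotype, Tcf7WT and Tcf7KO. The comparisons ask how these genes differ between the sorts, between the Tcf7WT and Tcf7KO genotypes, and between cells in which Tcf7 RNA was and was not detected. The 4 groups were thus TCRb Tcf7WT, TCRb Tcf7KO, TCRgd Tcf7WT and TCRgd Tcf7KO. All carry the same strain label, E8IcreTcf7fl/fl, so only the genotype label tells the Tcf7KO and Tcf7WT libraries apart. E8I is an enhancer of Cd8a, and a Cre driven by it acts in CD8-lineage T cells rather than in the whole animal. The labels of the TCRgd cells name TCRgamma alone, and the sample titles name TCRgd. The age, sex and number of mice per library are not given in the sources used here.

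T cells that are not responding to antigen are kept small, mobile and long-lived by a set of transcription factors. Foxo1 enters the nucleus when growth-factor and antigen signals are low and turns on Klf2 and Il7r, and Klf2 in turn drives S1pr1, which lets cells leave tissue. Id3 restrains E proteins, Bach2 restrains effector genes, Satb1 organises chromatin, Myb helps memory cells renew, and Bcl11b, Gata3 and Runx1 hold T-cell identity. TCF-1, the product of Tcf7, is a partner of several of these factors in memory T cells, and tissue-resident T cells generally keep Klf2 and S1pr1 low.

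The promoter windows of 4 members are shown because Klf2, Id3 and Bcl11b had less RNA in both Tcf7KO libraries, and the Klf3 ratio of the TCRgd sort passed 1.5-fold once a few non-lymphoid cells were left out. Each window runs from 250 bases before to 50 bases from the RefSeq start site (GRCm38.p6), 300 bases, written 5′ to 3′ on the gene's strand. Capitals mark the letters ATCAAAG or TTCAAAG, used here for TCF factors, and TGTTTAC or TGTTTGC, used for FOXO factors, on either strand.
Klf2 (chr8:72318812-72319111, + strand): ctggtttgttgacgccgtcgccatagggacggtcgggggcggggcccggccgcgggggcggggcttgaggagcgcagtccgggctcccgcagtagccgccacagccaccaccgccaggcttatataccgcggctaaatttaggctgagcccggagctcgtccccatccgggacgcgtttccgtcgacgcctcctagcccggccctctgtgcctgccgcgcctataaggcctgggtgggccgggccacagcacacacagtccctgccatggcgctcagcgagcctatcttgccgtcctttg
Klf3 (chr5:64803271-64803570, + strand): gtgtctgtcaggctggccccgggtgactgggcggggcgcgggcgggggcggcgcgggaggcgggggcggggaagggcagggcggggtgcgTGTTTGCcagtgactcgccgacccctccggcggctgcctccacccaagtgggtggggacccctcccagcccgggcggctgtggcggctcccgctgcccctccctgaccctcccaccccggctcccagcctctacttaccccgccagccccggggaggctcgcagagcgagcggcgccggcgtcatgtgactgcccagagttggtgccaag
Id3 (chr4:136143572-136143871, + strand): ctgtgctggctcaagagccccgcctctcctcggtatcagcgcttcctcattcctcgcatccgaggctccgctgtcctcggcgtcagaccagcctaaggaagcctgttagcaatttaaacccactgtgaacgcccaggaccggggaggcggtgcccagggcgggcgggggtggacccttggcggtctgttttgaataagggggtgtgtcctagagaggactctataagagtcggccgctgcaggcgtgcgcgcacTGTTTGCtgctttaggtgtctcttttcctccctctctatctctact
Bcl11b (chr12:108003365-108003664, - strand): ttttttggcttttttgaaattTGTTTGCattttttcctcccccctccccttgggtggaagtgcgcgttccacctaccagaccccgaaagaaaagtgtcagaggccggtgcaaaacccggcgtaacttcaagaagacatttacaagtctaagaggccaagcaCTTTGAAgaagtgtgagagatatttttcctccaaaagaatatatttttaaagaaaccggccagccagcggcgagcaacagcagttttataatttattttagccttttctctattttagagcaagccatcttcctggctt
Klf2 had no match to either set of letters in its window. Klf3, Id3 and Bcl11b each held TGTTTGC, and Bcl11b also held CTTTGAA, the reverse complement of TTCAAAG. All 10 genes matched the RefSeq table, with 15 windows in all. The TCF letters were in 1 of 15 windows (6.67%), beside 8.65% of the 32851 windows of all genes. The FOXO letters were in 5 of 15 windows (33.3%), those of Id3, Klf3, Myb, Bcl11b and Runx1, beside 8.48% of all windows. CACCC, a core of KLF sites, was in 11 of 15 windows (73.3%) beside 57.5% of all, and TGTGGT, used for RUNX factors, in 1 of 15 (6.67%), a Runx1 window, beside 16.8% of all. No set of letters contains another. A match is a stretch of letters and was not tied to binding.

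The libraries held 7603 cells (TCRb Tcf7WT), 5785 (TCRb Tcf7KO), 1888 (TCRgd Tcf7WT) and 1511 (TCRgd Tcf7KO), with median depths of 2431, 2860, 3188 and 4366 unique molecular identifiers (UMIs) per cell. Pairs of libraries shared 1 to 10 cell barcodes. Trdc, the constant part of the delta chain, stood at 1946 and 1905 CPM (UMIs of a gene scaled to a common library total) in the TCRgd libraries and at 15.4 and 14.7 CPM in the TCRb libraries, while Trbc2 transcripts were found in both sorts, at 1834 to 1933 CPM in TCRb and 1087 to 1135 CPM in TCRgd. Tcf7 itself stood at 148 CPM in TCRb Tcf7WT, 107 in TCRb Tcf7KO, 45.7 in TCRgd Tcf7WT and 14.6 in TCRgd Tcf7KO. Because 3′ reads may come from an undeleted stretch of Tcf7, these levels do not check the genotype labels. Cells with an epithelial profile numbered 11, 5, 18 and 20 in the libraries in the order above but held 0.6%, 0.6%, 1.6% and 6.2% of all UMIs, so values that rest on them are given with and without them. With 1 library per group no difference between libraries has a replicate check. Brackets therefore give 95% intervals of a ratio of UMI counts, which cover counting error only. A gene was counted as apart when 2 libraries differed at least 1.5-fold and held at least 50 UMIs between them.

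Between the sorts, the trafficking and memory members were lower in TCRgd cells, Runx1 was higher, and Foxo1 differed little. Gata3 differed little within Tcf7WT, and within Tcf7KO it was lower in TCRgd cells by less than 1.5-fold. Klf2 stood at 672 CPM in TCRb Tcf7WT and 459 in TCRb Tcf7KO, against 139 in TCRgd Tcf7WT and 94.2 in TCRgd Tcf7KO. Both TCRb libraries were thus above both TCRgd libraries for this driver of tissue exit. Within Tcf7WT, Klf2 was 4.82-fold lower in TCRgd cells (log2 ratio -2.27, -2.37 to -2.17), and within Tcf7KO it was 4.87-fold lower (-2.28, -2.40 to -2.17). Satb1, a chromatin organiser, gave 147, 165, 25.2 and 50.7 CPM in the same order of libraries. Its TCRgd values were 5.82-fold lower within Tcf7WT (-2.54, -2.78 to -2.31) and 3.26-fold lower within Tcf7KO (-1.70, -1.87 to -1.55). Id3, the E protein inhibitor, stood at 396, 305, 104 and 53.6 CPM. The order of the sorts was the same as for Klf2, with Id3 3.79-fold lower in TCRgd within Tcf7WT (-1.92, -2.04 to -1.81) and 5.70-fold lower within Tcf7KO (-2.51, -2.66 to -2.36).

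Klf3, a repressor of the Klf family, stood at 67.7, 79.5, 15.8 and 13.9 CPM, 4.28-fold lower in TCRgd within Tcf7WT and 5.71-fold lower within Tcf7KO. Epithelial-like cells held 26.5% of its UMIs in TCRgd Tcf7WT and 69.0% in TCRgd Tcf7KO, against 1.4% and 1.2% in the TCRb libraries. Without those cells Klf3 was 5.68-fold lower within Tcf7WT (-2.51, -2.87 to -2.16) and 17.2-fold lower within Tcf7KO (-4.10, -4.67 to -3.59). Bach2, which represses effector genes, was read at low levels, 22.1, 18.8, 10.0 and 8.49 CPM, and was 2.21-fold and 2.22-fold lower in TCRgd within Tcf7WT and Tcf7KO. Bcl11b, a guardian of T-cell identity, stood at 236, 199, 175 and 103 CPM, and its sort difference passed 1.5-fold within Tcf7KO alone (1.93-fold lower, -0.95, -1.06 to -0.83; Tcf7WT -0.43, -0.53 to -0.33). Whether this sort difference depends on genotype was not tested.

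Runx1, which works with Runx3 in CD8 T cells, ran the other way. It stood at 30.5 and 33.6 CPM in TCRb Tcf7WT and Tcf7KO and at 52.5 and 47.3 CPM in TCRgd Tcf7WT and Tcf7KO, so both TCRgd libraries were above both TCRb libraries. The difference was 1.72-fold within Tcf7WT (0.78, 0.58 to 0.98) and under the threshold within Tcf7KO (0.49, 0.30 to 0.69). Foxo1, the upstream activator of Klf2, stood at 163, 178, 152 and 188 CPM, and its sort ratios were -0.09 (-0.20 to 0.01) within Tcf7WT and 0.07 (-0.02 to 0.17) within Tcf7KO. Gata3 stood at 135, 162, 124 and 117 CPM, with sort ratios of -0.12 (-0.24 to -0.01) and -0.47 (-0.58 to -0.36). The Foxo1 levels of the TCRb and TCRgd libraries overlapped. Myb, at 2.46, 3.76, 4.20 and 5.85 CPM, could not be read as a lymphocyte gene here, because epithelial-like cells held 84.6% and 95.2% of its UMIs in the TCRgd libraries. Without them its TCRgd counts were 4 UMIs (Tcf7WT) and 2 UMIs (Tcf7KO).

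In all, 7 of 10 members were apart between the sorts within Tcf7WT, 5 lower and 2 higher in TCRgd, against 16.7% of all genes measured (8.43% higher, 8.27% lower). Without epithelial-like cells the members called lower stayed the same and Runx1 stayed higher, while Myb had too few UMIs to be counted (-1.67). With all cells the members' median log2 ratio was -0.79, beside -0.09 over all genes. Within Tcf7KO 7 of 10 were apart, 6 lower and 1 higher, against 19.7% of all genes (11.1% higher, 8.54% lower), with medians of -1.05 and -0.07. The 1 higher member was Myb. Without epithelial-like cells Myb was lower in TCRgd (-3.26, from 2 and 52 UMIs), and the members called lower stayed the same. These 2 comparisons use different libraries, and each shares its libraries with the genotype comparisons. Fewer cells of a type and less RNA per cell cannot be told apart in such sums.

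**Figure D1:**
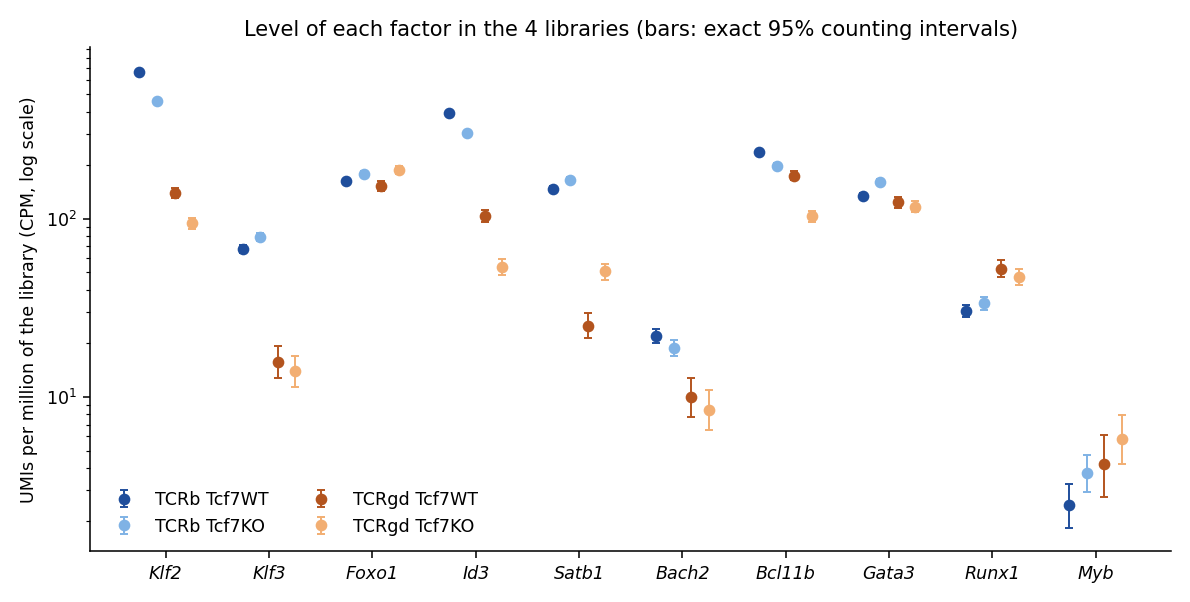
Level of each of the 10 members in each of the 4 libraries, in CPM on a log axis, with bars for the 95% Poisson interval of the count. The TCRgd libraries lie below the TCRb libraries for Klf2, Klf3, Id3, Satb1 and Bach2, as for Klf2 at 139 and 94.2 against 672 and 459, and above them for Runx1.

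The share of cells with a UMI showed the same order when every cell was thinned to 1624 UMIs. For Klf2 that share was 29.4% in TCRb Tcf7WT, 23.7% in TCRb Tcf7KO, 11.96% in TCRgd Tcf7WT and 9.17% in TCRgd Tcf7KO (34.1%, 29.9%, 16.5% and 14.8% before thinning). For Id3 the thinned shares were 34.9%, 27.9%, 9.38% and 6.81% (44.3%, 39.6%, 16.5% and 13.6% before). In epithelial-like cells, thinned alike from a median depth of 9449.5 UMIs, 15.2% had a Klf2 UMI and 19.6% an Id3 UMI, so the TCRgd shares of both genes lay at or below the share in cells that are not lymphocytes. Those shares therefore do not show how many TCRgd cells express either gene, and whether the UMIs in epithelial-like cells are their own was not tested. No Satb1 UMI was found in 46 thinned epithelial-like cells, so a background of up to 6.52% is possible, and its thinned shares were 19.4%, 22.3%, 4.03% and 8.90% (27.0%, 34.3%, 6.83% and 19.5% before). The TCRgd Tcf7WT share of Satb1 lay under that limit and the TCRgd Tcf7KO share above it. The limit is wide because few epithelial-like cells were read. Before thinning, at their greater depth, 0 of 54 of those cells had a Satb1 UMI, beside 6.83% of TCRgd Tcf7WT cells. Foxo1 was detected in a like share of thinned cells throughout, 22.2%, 22.7%, 22.7% and 24.1% (32.3%, 37.5%, 36.4% and 48.5% before), against 8.70% in epithelial-like cells. Thinning left out 759, 489, 300 and 28 shallower cells.

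Part of the sort difference in Klf2 followed the cells of a circulating type. In TCRb Tcf7WT the naive or central memory T-like cluster, led by Cd8b1, Ccr7, Il7r and Dapl1, and the circulating effector memory T-like cluster, led by Ly6c2, S100a4 and S1pr1, held 892 cells, 11.7% of the library. Those cells held 13.5% of all UMIs but 52.4% of the Klf2 UMIs, 37.5% of the Klf3 UMIs and 29.5% of the Satb1 UMIs. In TCRb Tcf7KO they were 672 cells (11.6%) with 51.96% of the Klf2 UMIs, and in the TCRgd libraries only 22 and 25 cells. Those TCRgd cells held 1.74% of the Klf2 UMIs in Tcf7WT (2.33% of all UMIs) and 8.12% in Tcf7KO (2.89%). The effector memory name rests on 3 of 8 markers found, 2 of them among the 10 leading genes of the cluster. Hba-a2, Hbb-b1 and Mcm3 were also leading genes, and in a coarser clustering no cluster took that name. With both clusters left out of every library, the Klf2 sort ratio within Tcf7WT moved from -2.27 to -1.40 and within Tcf7KO from -2.28 to -1.53. The Satb1 ratio within Tcf7WT moved to -2.30 and the Id3 ratio to -1.99, so the sort difference of these genes was nearly as large without the circulating-type cells.

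The sort difference was also present inside clusters. Within Tcf7WT 4 clusters had at least 50 cells of each sort, and Klf2, Id3 and Satb1 were each lower in TCRgd cells in 4 of 4, with intervals below 0 in 3, 3 and 2 of them. Klf3 was lower in 3 of 4, all with intervals below 0, and in the H2-Eb1-led cluster its interval held 0 (0.77, -0.08 to 1.69). For Satb1 the sorts could not be told apart by counting error in the cytotoxic resident IEL-like cluster, led by Gzma, Gzmb and Tnfrsf9 (20.4 CPM in TCRgd, 22.7 in TCRb; -0.15, -1.30 to 1.13), or in the H2-Eb1-led cluster (10.3 and 10.8 CPM; -0.07, -0.94 to 0.85). In the unnamed cluster led by Junb, Sik1 and Nr4a1, genes of recent activation, Klf2 stood at 149 CPM in TCRgd and 573 CPM in TCRb cells (-1.94). In the unnamed cluster led by Hbb-b1, Id3 and Cd160, Satb1 stood at 31.4 against 114 CPM (-1.87). Runx1 was different, since it was higher in TCRgd cells in 2 of 4 clusters, with no interval above 0 and 1 below, and its sort ratio with clusters weighted alike was -0.0118 within Tcf7WT and -1.19 within Tcf7KO. Within Tcf7KO, where 2 clusters could be compared, Klf2, Id3, Klf3 and Satb1 were lower in TCRgd cells in 2 of 2.

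Between the genotypes, Klf2 and Id3 were lower in Tcf7KO than in Tcf7WT in each sort, and Satb1 was higher in each. In TCRb cells these differences were under 1.5-fold. Klf2 went from 672 CPM in Tcf7WT to 459 in Tcf7KO, 1.46-fold lower (-0.55, -0.59 to -0.51). Id3 (-0.37, -0.42 to -0.32; 0.00501 with clusters weighted alike), Bcl11b (-0.24, -0.31 to -0.18) and Bach2 (-0.23, -0.44 to -0.02) were also on the lower side. On the higher side in TCRb Tcf7KO were Gata3 (0.26, 0.19 to 0.34), Klf3 (0.23, 0.12 to 0.34), Satb1 (0.17, 0.10 to 0.24) and Foxo1 (0.13, 0.06 to 0.20), while the Runx1 interval held 0 (0.14, -0.02 to 0.30). Thus the members did not move as a block in the TCRb sort. Only Myb, with 50 UMIs in Tcf7WT and 69 in Tcf7KO, was apart (1.52-fold higher, 0.61, 0.06 to 1.16), and without epithelial-like cells its ratio was 0.45 with an interval that held 0 (-0.16 to 1.07).

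That made 1 of 10 members apart in TCRb, higher, against 5.94% of all genes (2.13% higher, 3.80% lower), which is close to the background. The members' median was 0.14, beside -0.07 over all genes. Of all genes apart in this comparison, 35.9% were higher in Tcf7KO by CPM, 49.1% with TMM scaling and 48.7% with DESeq2 size factors.

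In TCRgd cells the genotype differences of 3 members passed 1.5-fold. Satb1 stood at 25.2 CPM in TCRgd Tcf7WT and 50.7 CPM in TCRgd Tcf7KO, 2.01-fold higher (1.01, 0.73 to 1.29). Id3 was 1.95-fold lower in Tcf7KO (-0.96, -1.15 to -0.78), and Bcl11b was 1.69-fold lower (-0.76, -0.90 to -0.62). The TCRgd cells of the genotypes lay in different clusters, with 975 Tcf7WT and 31 Tcf7KO cells in an H2-Eb1-led cluster and 306 and 1316 in a cytotoxic resident IEL-like cluster. The Hbb-b1-led cluster had 344 Tcf7WT and 27 Tcf7KO cells, and held 319 of the 647 Id3 UMIs of TCRgd Tcf7WT. Inside clusters the Id3 ratio was -0.67 (-1.37 to -0.03) in the Junb-led cluster and -0.40 (-0.81 to 0.03) in the cytotoxic cells. Inside clusters the Bcl11b ratio was -0.31 (-0.57 to -0.06) in the cytotoxic cells and 0.41 (-0.16 to 0.96) in the Junb-led cluster, and it was 0.0493 with clusters weighted alike. Satb1 was thus the sole member that was called higher. Klf2 was 1.48-fold lower (-0.56, -0.71 to -0.42), a ratio like that in TCRb cells, and Foxo1 was slightly higher (0.30, 0.18 to 0.42). The intervals of Bach2 (-0.24, -0.77 to 0.30), Klf3 (-0.18, -0.60 to 0.23), Runx1 (-0.15, -0.37 to 0.08), Gata3 (-0.08, -0.23 to 0.06) and Myb (0.48, -0.26 to 1.24) held 0.

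These 3 of 10 members, 1 higher and 2 lower, stood beside 11.9% of all genes apart in the TCRgd comparison (6.90% higher, 4.97% lower). The members' median was -0.17, beside -0.03 over all genes. The summed level of 10 epithelial marker genes was 381 CPM in TCRb Tcf7WT, 360 in TCRb Tcf7KO, 751 in TCRgd Tcf7WT and 2126 in TCRgd Tcf7KO. With the epithelial-like cells left out, Klf2 (1.59-fold lower, -0.67, -0.82 to -0.51) and Klf3 also passed 1.5-fold in TCRgd cells. Klf3 was read there from 72 UMIs in Tcf7WT and 31 in Tcf7KO, 11.8 against 4.60 CPM, 2.57-fold lower (-1.36, -2.02 to -0.74), whereas in TCRb cells its ratio without epithelial-like cells stayed at 0.23. This direction was not seen inside clusters, where TCRgd Klf3 gave 1.05 from 10 UMIs in Tcf7WT and 7 in Tcf7KO (Junb-led cluster) and 1.62 from 1 and 15 UMIs (cytotoxic cluster), both with intervals that held 0, and with clusters weighted alike it gave 1.33.

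**Figure D2:**
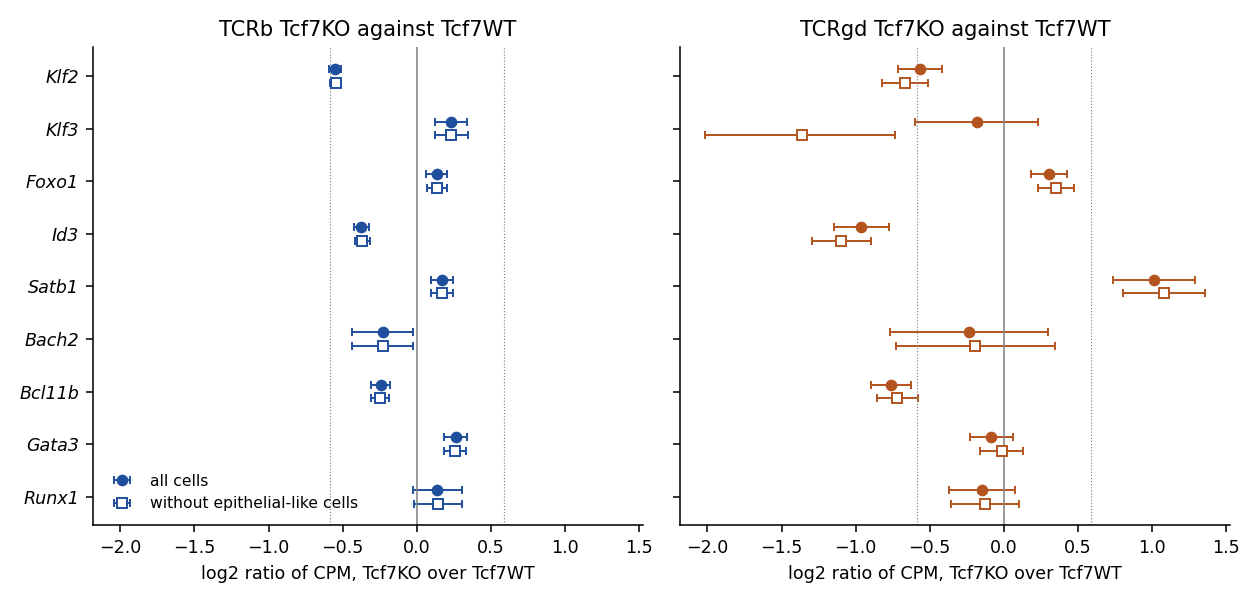
Log2 ratio of CPM, Tcf7KO over Tcf7WT, for each member but Myb, with TCRb on the left and TCRgd on the right. Filled points show all cells and open squares cells without the epithelial-like ones, bars the 95% interval of the count ratio, and dotted lines 1.5-fold. Klf2, Id3 and Bcl11b lie below 0 in both sorts, Satb1 lies above 0 in both (0.17 and 1.01), and Klf3 of TCRgd cells moves from -0.18 to -1.36 when epithelial-like cells are left out.

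The cells were grouped into 9 clusters without the 10 members or Tcf7, so that the members could be read across clusters as a description. In TCRb Tcf7WT Klf2, Klf3, Foxo1, Satb1, Bach2, Bcl11b, Gata3 and, from 12 UMIs, Myb were highest in the naive or central memory T-like cluster. Klf2 stood at 3130 CPM there and at 2336 CPM in the circulating effector memory T-like cluster, against 144 to 573 CPM in the 4 clusters of resident or unnamed type. Satb1 stood at 398 and 280.1 CPM in those circulating-type clusters, at 165 and 114 CPM in the Junb-led and Hbb-b1-led clusters, and at 22.7 and 10.8 CPM in the cytotoxic resident IEL-like cluster and the H2-Eb1-led cluster. Klf3 followed a similar order, 261 and 150.0 CPM, then 73.6 and 38.5, then 22.7 and 9.06. Klf2, Klf3 and Satb1 were thus all high in the circulating-type clusters and low in the clusters with granzyme genes. In TCRb Tcf7KO Foxo1 and Myb were instead highest in the circulating effector memory T-like cluster. How many of all genes are highest in either cluster was not counted.

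In TCRb Tcf7WT Id3 and Runx1 did not follow the order of Klf2, Klf3 and Satb1. Id3 stood at 559 CPM in the circulating effector memory T-like cluster and 512 CPM in the Hbb-b1-led cluster, where it is itself a leading gene, but at 189 CPM in the naive or central memory T-like cluster and 60.4 CPM in the cytotoxic cluster. Runx1 stood at 86.6 CPM in the H2-Eb1-led cluster and 70.5 CPM in the cytotoxic cluster, against 19.7 and 19.6 CPM in the Junb-led and Hbb-b1-led clusters, and also reached 77.4 CPM in the naive or central memory T-like cluster. Foxo1 ranged from 129 to 266 CPM. Bcl11b stood at 623 CPM in the naive or central memory T-like cluster and at 138 to 230 CPM elsewhere, Gata3 at 215 against 103 to 156 CPM, and Bach2 at 69.9 against 6.79 to 25.4 CPM.

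**Figure D3:**
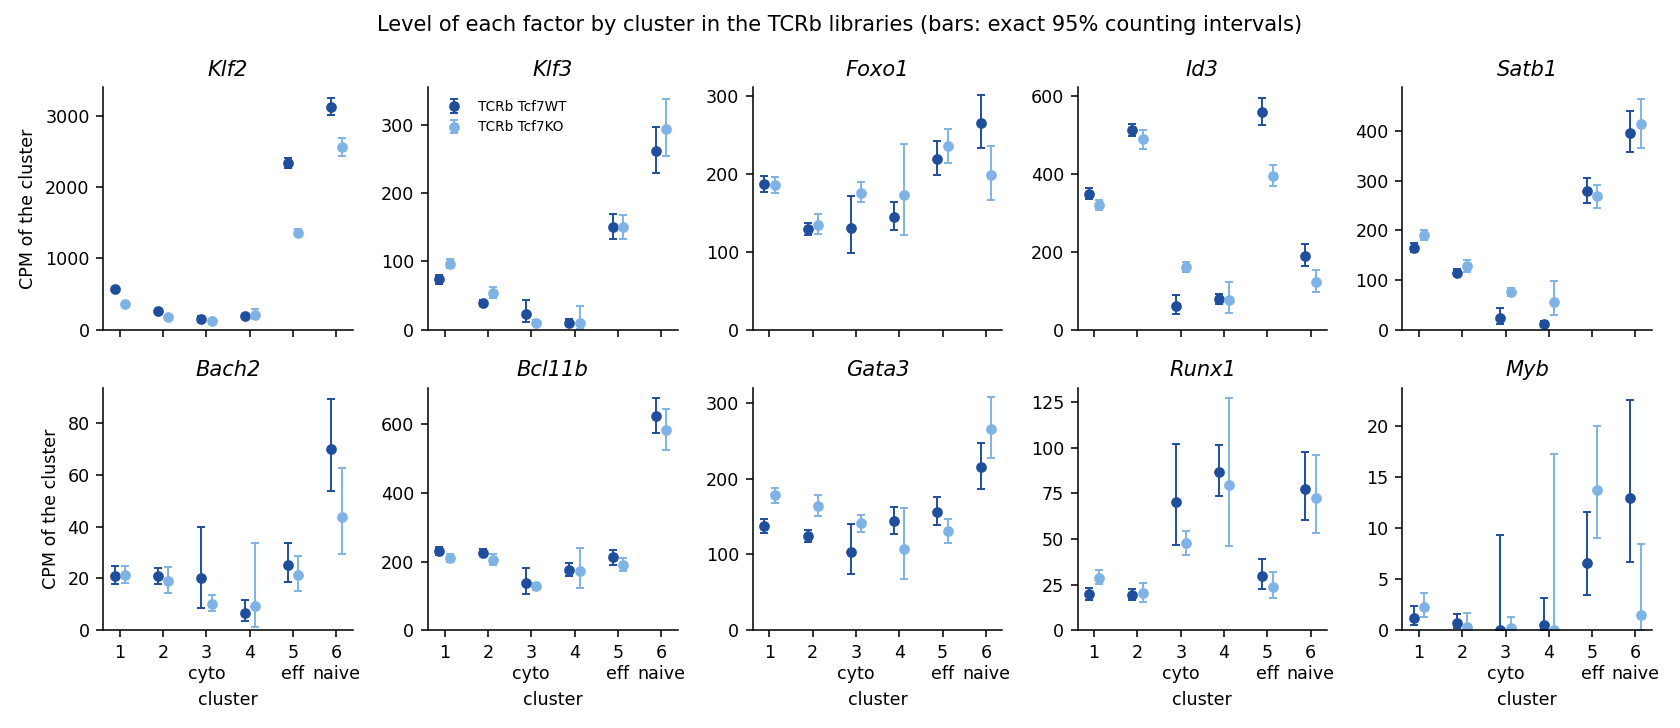
Level of each member, in CPM of the cluster on linear axes from 0, in clusters 1 (Junb-led), 2 (Hbb-b1-led), 3 (cytotoxic resident IEL-like), 4 (H2-Eb1-led), 5 (circulating effector memory T-like) and 6 (naive or central memory T-like) of the 2 TCRb libraries, with bars for the 95% Poisson interval. Klf2, Klf3, Satb1 and Bcl11b are highest in cluster 6 (Klf2 3130 in Tcf7WT and 2558 in Tcf7KO), and Runx1 is higher in clusters 3 and 4 than in clusters 1 and 2.

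Inside the clusters of the TCRb sort, Klf2 was lower in Tcf7KO cells in 5 of 6, with 4 intervals below 0. The circulating effector memory T-like cluster gave 2336 CPM in Tcf7WT and 1359 CPM in Tcf7KO (-0.78, -0.85 to -0.71), and the Junb-led cluster 573 and 356 CPM (-0.69). The lower Klf2 of TCRb Tcf7KO was therefore seen within cell groups as well as in the library sums, and leaving out both circulating-type clusters left its ratio at -0.52. Bcl11b was lower in Tcf7KO in 6 of 6 clusters, with 2 intervals below 0. Its ratios were small, -0.15 to -0.03, beside a median of -0.07 over all genes in the sums of the TCRb libraries. Satb1 was higher in 5 of 6 with 3 intervals above 0, and Gata3 was higher in 4 of 6 with 3 above and 1 below.

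Among clusters with at least 50 Satb1 UMIs over both genotypes, the largest genotype difference of Satb1 was in the cytotoxic resident IEL-like cells, in both sorts. Satb1 lies at chr17:51736187-51833290 on the minus strand (GRCm38, GENCODE M21). In the TCRb libraries that cluster held 9 Satb1 UMIs in Tcf7WT, 22.7 CPM, and 322 in Tcf7KO, 75.1 CPM (1.73, 0.79 to 2.87). The H2-Eb1-led cluster of that sort gave 2.38, from 19 UMIs in Tcf7WT and 12 in Tcf7KO. In the TCRgd libraries the same cluster gave 20.4 CPM in Tcf7WT and 52.2 CPM in Tcf7KO (1.35, 0.77 to 2.004). No Satb1 UMI was found in the epithelial-like cells, so they added nothing to these values. Id3 in the cytotoxic cluster was also higher in TCRb Tcf7KO, 161 against 60.4 CPM (1.41, 0.83 to 2.06), although Id3 of the whole TCRb library was lower. In the TCRgd sort, the Id3 interval in that cluster held 0 (-0.40), Klf2 was lower (-0.51, -0.79 to -0.22) and Bcl11b was lower (-0.31).

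The cytotoxic cluster had few TCRb Tcf7WT cells, 110 of 7603, so a coarser clustering was read as well, chosen after the data were seen. There the cytotoxic cluster took in the H2-Eb1-led cells. It held 763 Tcf7WT and 1225 Tcf7KO cells of the TCRb sort and 1269 and 1344 of the TCRgd sort. The finer H2-Eb1-led cluster had 654 Tcf7WT and 87 Tcf7KO cells of the TCRb sort, and 975 and 31 of the TCRgd sort. The Tcf7WT side was thus mostly H2-Eb1-led cells and the Tcf7KO side mostly cytotoxic cells. The mix of finer clusters and the genotype cannot be told apart in these ratios. Satb1 stood at 12.9 CPM in Tcf7WT and 76.5 CPM in Tcf7KO of the TCRb sort (2.57, 2.01 to 3.18) and at 13.1 and 52.9 CPM in the TCRgd sort (2.01, 1.59 to 2.46). Klf2 was lower in Tcf7KO in both sorts there (-0.52, -0.71 to -0.33 in TCRb; -0.86, -1.04 to -0.69 in TCRgd). Id3 was higher in Tcf7KO in both sorts (1.05, 0.80 to 1.31 in TCRb, and 0.33, 0.01 to 0.66 in TCRgd). In the finer cytotoxic cluster the TCRgd Id3 ratio was instead -0.40, with an interval that held 0. Runx1 was lower in Tcf7KO in both sorts (-0.76 and -0.33). In all, 3 of 9 measured members were apart in the TCRb sort (Satb1 and Id3 higher, Runx1 lower), against 9.42% of all genes (4.29% higher, 5.13% lower). In the TCRgd sort 4 of 9 were apart (Satb1 higher, Klf2, Klf3 and Bcl11b lower), against 9.61% of all genes (3.43% higher, 6.18% lower). In the finer cytotoxic cluster the TCRgd Klf3 ratio was 1.62, from 1 and 15 UMIs, with an interval that held 0.

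Cells were then split by whether a Tcf7 UMI was seen after thinning to 1624 UMIs. Tcf7 was seen in 20.6% of TCRb Tcf7WT, 15.6% of TCRb Tcf7KO, 6.61% of TCRgd Tcf7WT and 2.02% of TCRgd Tcf7KO cells (30.03%, 25.8%, 12.8% and 6.02% before thinning). At this depth a cell with no Tcf7 UMI may still express the gene. In epithelial-like cells Tcf7 was seen in 3.70% before thinning and in 0 of 46 cells after it, which allows up to 6.52%, so the thinned TCRgd Tcf7KO share lay under that limit. In TCRb Tcf7WT, 1413 cells had a Tcf7 UMI and 5431 had none, and in TCRb Tcf7KO 828 had and 4468 had not.

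In TCRb Tcf7WT the Tcf7-detected cells had more of 7 members and less Runx1. Bach2 stood at 34.5 CPM in detected and 21.4 CPM in undetected cells (0.69, 0.29 to 1.07). Klf3 stood at 99.0 against 66.4 CPM (0.58, 0.35 to 0.80), Satb1 at 196 against 138 CPM (0.51, 0.35 to 0.66) and Klf2 at 824 against 661 CPM (0.32, 0.24 to 0.39). These 4 genes, which were low in TCRgd cells, were thus higher in cells with Tcf7 RNA. Bcl11b stood at 280 against 239 CPM (0.23, 0.10 to 0.36), Foxo1 at 181 against 158 CPM (0.19, 0.03 to 0.35) and Id3 at 432 against 386 CPM (0.16). Runx1 stood at 23.6 against 32.4 CPM (-0.46, -0.91 to -0.04), and the Gata3 interval held 0 (-0.16, -0.35 to 0.02). Of 9 members with enough UMIs, 1 was apart (Bach2, higher), against 4.87% of all genes (1.62% higher, 3.25% lower), and the members' median was 0.23, beside -0.00 over all genes.

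In TCRb Tcf7KO the split put Klf2, Klf3 and Satb1 on the same side. Klf2 stood at 674 CPM in detected and 424 CPM in undetected cells (0.67, 0.56 to 0.78), Klf3 at 117 against 78.4 CPM (0.58, 0.31 to 0.83) and Satb1 at 224 against 164 CPM (0.45, 0.26 to 0.63). Runx1 stood at 22.3 against 34.6 CPM (-0.63, -1.23 to -0.08), but gave -0.06 in a second draw of the thinning and 0.31 when thinned to 1000 UMIs. Klf2 (higher) and Runx1 (lower) made 2 of 9 members apart, against 7.55% of all genes (2.85% higher, 4.70% lower). In the main draw the members' median was 0.25, beside -0.00 over all genes. In the second draw 0 were apart (Klf2 0.54).

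The Klf2 difference was much smaller when the naive and circulating-type clusters were left out. It went from 0.32 to 0.10 in TCRb Tcf7WT and from 0.67 to 0.07 in TCRb Tcf7KO, while Satb1 gave 0.41 and 0.30, Klf3 0.38 and 0.42, and Bach2 of Tcf7WT 0.70. Tcf7 was seen in 28.7% of thinned cells of the naive or central memory T-like cluster and 23.3% of the circulating effector memory T-like cluster of TCRb Tcf7WT, beside 8.26% of the cytotoxic and 5.69% of the H2-Eb1-led cluster. Inside the 4 clusters that could be split in TCRb Tcf7WT, Klf3, Satb1, Bach2, Bcl11b and Foxo1 were each higher in detected cells in 4 of 4, with an interval above 0 in 2 clusters for Satb1 and in 1 for each of the others. Klf2 was higher in 3 of 4, Id3 and Runx1 in 2 of 4 and Gata3 in 1 of 4. In TCRb Tcf7KO 5 clusters could be split, and no member was higher in all of them. There Klf3, Satb1 and Id3 were higher in 4 of 5, Bach2, Foxo1 and Gata3 in 3 of 5, Klf2 and Bcl11b in 2 of 5 and Runx1 in 1 of 5, with 1 interval above 0 each for Satb1, Id3, Klf2 and Gata3 and 0 for the others.

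**Figure D4:**
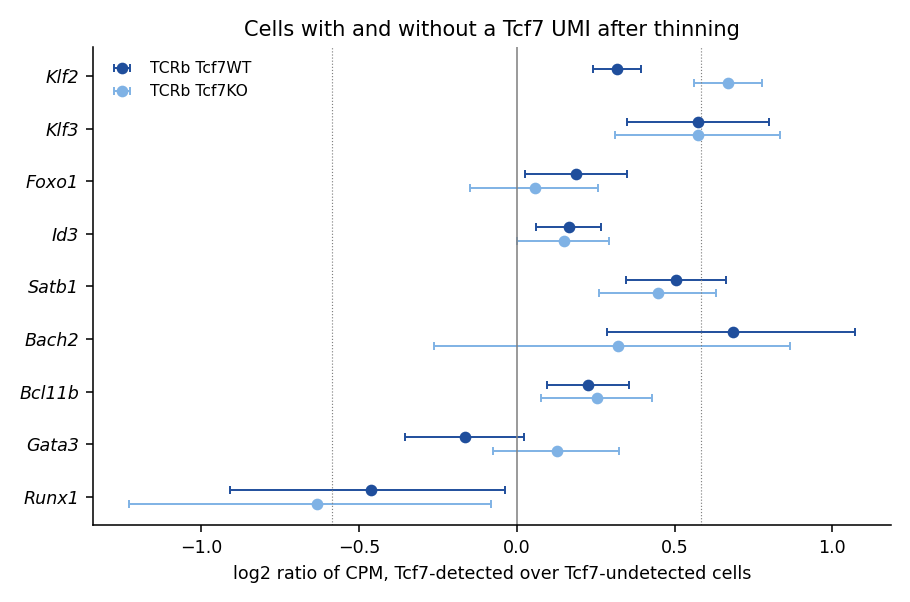
Log2 ratio of CPM between cells with and without a Tcf7 UMI, each cell thinned to 1624 UMIs, for each member but Myb in the 2 TCRb libraries, with bars for the 95% interval of the count ratio and dotted lines at 1.5-fold. Klf2, Klf3, Satb1 and Bcl11b lie above 0 in both libraries, and Runx1 lies below 0 in both (-0.46 and -0.63).

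The TCRgd splits rest on few cells. In TCRgd Tcf7WT 105 cells had a Tcf7 UMI and 1483 had none. Id3 was higher in the detected cells (1.01, 0.41 to 1.57, 30 against 210 UMIs), as were Klf2 (0.68, 0.15 to 1.17) and Satb1 (1.64, 0.65 to 2.52, 13 against 59 UMIs), making 3 of 7 members apart against 25.0% of all genes (10.2% higher, 14.8% lower). The Klf2 ratio was -1.02 when thinned to 1000 UMIs and -0.53 with at least 2 Tcf7 UMIs. In TCRgd Tcf7WT, Tcf7 was seen in 20.8% of thinned Junb-led, 14.97% of Hbb-b1-led, 1.34% of cytotoxic and 2.49% of H2-Eb1-led cluster cells. In the same clusters Id3 stood at 194, 294, 49.8 and 21.6 CPM, and Satb1 at 92.5, 31.4, 20.4 and 10.3 CPM. Klf2 stood at 149, 96.9, 110 and 164 CPM, highest in the H2-Eb1-led cluster. Whether the differences of this split hold inside clusters was not tested. In TCRgd Tcf7KO, with 30 detected cells, 3 of 7 members were apart 2 higher and 1 lower, against 37.8% of all genes (19.0% higher, 18.8% lower), a share near the background.

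Other genes of the same pathways were read from lists. Of 7 trafficking and survival targets of Klf2 and Foxo1 (S1pr1, S1pr4, Ccr7, Il7r, Itgb7, Cd69 and Bcl2), 0 were apart between genotypes in TCRb cells. That stood beside 5.94% of all genes apart, with a median of -0.01 for the targets. S1pr1, the exit receptor driven by Klf2, stood at 39.1 CPM in TCRb Tcf7WT and 40.5 CPM in TCRb Tcf7KO (0.05, -0.10 to 0.20), so it did not follow the lower Klf2 of that library. In TCRgd cells 3 of 5 measured targets were lower in Tcf7KO, beside 4.97% of all genes, with a median of -0.59 beside -0.03. Il7r, the receptor for the survival cytokine IL-7, stood at 18.9 CPM in TCRgd Tcf7WT and 3.20 CPM in TCRgd Tcf7KO (-2.56, -3.27 to -1.91), and the others were Itgb7 (-0.66) and S1pr4 (-0.59).

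Between sorts, 3 of 6 measured targets were lower in TCRgd cells within Tcf7WT, beside 8.27% of all genes, and 5 of 7 within Tcf7KO, beside 8.54%. S1pr1 stood at 0.968 CPM in TCRgd Tcf7WT, from 6 UMIs, against 39.1 CPM in TCRb Tcf7WT (-5.33, -6.79 to -4.21). In the Tcf7 split, 3 of 7 targets were higher in Tcf7-detected cells of TCRb Tcf7WT, beside 1.62% of all genes, with a median of 0.48. They were Ccr7 (0.99), Il7r (0.90) and S1pr1 (0.62). In TCRb Tcf7KO 3 of 7 were higher in detected cells, beside 2.85% of all genes, Ccr7 (1.31), S1pr1 (1.09) and Il7r (0.97), with a median of 0.01 over the 7 targets.

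Of 18 other quiescence and naive-state regulators, 2 were higher in TCRb Tcf7KO (Cnot3, 0.75, and Bcl6, 0.69), beside 2.13% of all genes. In TCRgd cells 0 of 16 measured were apart between genotypes, beside 11.9% of all genes. Between sorts 4 of 18 were lower in TCRgd within Tcf7WT, beside 8.27% of all genes, led by Lef1, the paralog of Tcf7, at 2.58 against 46.5 CPM (-4.17, -4.98 to -3.46), and 6 of 18 within Tcf7KO, beside 8.54%. Among 5 E protein and Id partners, Id1 was lower in TCRb Tcf7KO (-1.61) and higher in TCRgd Tcf7KO (1.61), and Tcf4 was higher in TCRgd cells within both genotypes (0.92 and 0.81). Among 6 Runx and Gata partners, Runx2 stood at 21.4 CPM in TCRb Tcf7WT, 10.6 in TCRb Tcf7KO, 104 in TCRgd Tcf7WT and 41.6 in TCRgd Tcf7KO. Runx2 was thus higher in TCRgd cells, as Runx1 was, and lower in both Tcf7KO libraries (-1.02 in TCRb, -1.32 in TCRgd).

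Of 14 effector and residency factors, 13 were measured in the TCRb genotype comparison and 2 were higher in Tcf7KO (Maf, 0.84, and Bhlhe40, 0.81), with Zeb2 lower (-1.15), beside 5.94% of all genes apart. In TCRgd cells Maf (1.18) and Bhlhe40 (0.79) were higher and Irf4 (-1.64) and Rora (-1.59) lower, of 11 measured, beside 11.9% of all genes apart. Prdm1, which encodes the effector and residency repressor Blimp-1, stood at 13.7 CPM in TCRb Tcf7WT and 81.5 CPM in TCRgd Tcf7WT (2.58, 2.36 to 2.79). It was lower in Tcf7-detected cells of TCRb Tcf7WT (-0.81, -1.57 to -0.13) and of TCRb Tcf7KO (-0.78, -1.62 to -0.03). Of 13 paralogs of the members, 11 were measured in the TCRb genotype comparison and 10 in the TCRgd one. Id1 and Runx2 were lower in TCRb Tcf7KO, beside 3.80% of all genes. In TCRgd Tcf7KO Runx2 was lower, beside 4.97% of all genes, and Id1 was higher, beside 6.90%.

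Genes with the pattern most like each member were named by Pearson's r of log2(CPM + 10) over 20 sums, each a cluster in a library with at least 50 cells. The sums share libraries and depths, so r is a description. Klf2 was most like S1pr1 (0.947), and Klf3 most like Cd28 (0.945), which encodes a costimulatory receptor. Satb1 was most like Tnfrsf26 (0.925), Bcl11b most like Ms4a6b (0.950), and Runx1 most like Prf1 (0.892), which encodes perforin. For Id3 the nearest were Zfp422 (0.855) and Tcf7 itself (0.825). The r of the members with Tcf7 was 0.845 for Klf3, 0.812 for Satb1, 0.732 for Klf2 and -0.444 for Runx1. The nearest genes of Foxo1 (Dusp10, 0.817), Bach2 (Ppp1r15a, 0.848), Myb (Rasa3, 0.824) and Gata3 (Atp10d, 0.855) had lower r.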

How the data were processed

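Live CD3+ CD8alpha+ colon IELs were sorted and run on the 10x Chromium 3′ v2 kit, per the labels' protocols. The authors deposited 4 matrices of whole-number UMI counts per gene and cell. Seurat 3.0.0 and the builds GRCm38 and mm10 appear in the submitters' processing notes. The counting settings and cell filters are not given in the sources used here. UMIs were summed per library, scaled to CPM and compared as ratios with exact 95% intervals. With 1 library per group no test was possible. Cells were clustered with leidenalg 0.10.2 (2000 variable genes, 30 components, 15 neighbours, resolution 0.5). The members, Tcf7, antigen receptor segments, Xist, Tsix, Y-linked genes and the proliferation markers were kept out of the variable genes. A cluster was named when at least 2 of its 10 leading genes were markers of a type, and more than for any other type, a minimum set after seeing the data, with at least 3 of that type's markers found in 5% or more of its cells. Scrublet, run through scanpy 1.11.5, gave calls too few to use in the TCRb libraries, so doublets were not removed. Scripts were tested on simulated data. TMM came from edgeR 4.0.16 and size factors from DESeq2 1.42.0. The named genes are the 10 members, the genes of 6 lists past 1.5-fold and the genes most like each member. The members and lists were chosen with earlier results of these data known. Of the genes in these lists, 2 are not reported here and were left out of the lists' counts and medians.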

Additional observations from a re-analysis of the deposited data

Results flagged for a closer look

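Klf3 moved in opposite directions in the sorts once the epithelial-like cells were left out. Its Tcf7KO to Tcf7WT log2 ratio was then 0.23 (0.13 to 0.34) in TCRb cells and -1.36 (-2.02 to -0.74) in TCRgd cells, a difference of -1.60 in the TCRgd minus TCRb direction. With 1 library per group the difference was not tested. The TCRgd value rests on 31 and 72 UMIs, and epithelial-like cells held 69.0% of the Klf3 UMIs of TCRgd Tcf7KO. Inside the clusters of the TCRgd sort that could be compared the ratio was above 0, at 1.05 and 1.62 with intervals that held 0, and with clusters weighted alike it was 1.33, so the direction depends on how the cells are grouped.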

How the results depend on the processing

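No paired analysis was possible because each group has 1 library and the labels give no replicate numbers. The count of members apart between genotypes in TCRb cells (1) became 3 with a lower fold threshold, 2 with clusters weighted alike, and 0 with a 2-fold threshold, each cell weighing the same, cells of 500 to 3500 genes, thinning, or without epithelial-like cells (also with proliferating-like cells left out). In TCRgd cells the count (3) became 5 with a lower fold threshold, cells of 500 to 3500 genes, without epithelial-like cells, without these and proliferating-like cells, or without the 5% of cells with the most UMIs, and 1 with a 2-fold threshold. The count between sorts within Tcf7WT (7) became 4 with clusters weighted alike. For the Tcf7 split, TCRb Tcf7WT (1) gave 0 with no thinning, 2 when thinned to 1000 UMIs, 3 with at least 2 Tcf7 UMIs and 2 without naive or circulating-like cells. TCRb Tcf7KO (2) gave 1 without naive or circulating-like cells and 0 in a second draw of the thinning. TCRgd Tcf7KO (3) gave 1 with no thinning and 5 with at least 2 Tcf7 UMIs. No share of all genes apart in the same setting stands beside these changed counts. They are therefore not results about the members.

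Weighting clusters alike turned the log2 ratio of Myb (TCRb genotypes) to -0.59, Bcl11b (TCRgd genotypes) to 0.0493, Runx1 (Tcf7WT sorts) to -0.0118 and Bach2 (Tcf7KO sorts) to 0.15. Among ratios under 1.5-fold it also turned Klf3 (to -0.0206), Id3 (to 0.00501) and Runx1 (to -0.0848) of the TCRb genotypes, Klf3 (to 1.33), Foxo1 (to -0.00548), Bach2 (to 0.34) and Gata3 (to 0.21) of the TCRgd genotypes, Foxo1 of the sorts (to 0.0881 within Tcf7WT and -0.0151 within Tcf7KO), and Runx1 of the Tcf7KO sorts (to -1.19). The Myb ratio of the sorts turned within Tcf7WT to -0.41 with each cell weighing the same, -1.67 without epithelial-like cells, -0.28 when thinned, -0.11 with clusters weighted alike, -1.66 without the 5% of cells with the most UMIs and -2.56 without epithelial-like and proliferating-like cells. Within Tcf7KO it turned to -0.62 with each cell weighing the same, -2.57 in cells of 500 to 3500 genes, -3.26 without epithelial-like cells, -2.48 without the 5% of cells with the most UMIs and -4.11 without epithelial-like and proliferating-like cells. In the Tcf7 split, Runx1 of TCRb Tcf7KO turned to 0.31 when thinned to 1000 UMIs, Klf2 of TCRgd Tcf7WT to -1.02 when thinned to 1000 UMIs and -0.53 with at least 2 Tcf7 UMIs, and Satb1 of TCRgd Tcf7KO to 0.21 with no thinning. The cause of these changes was not tested. The settings that leave out the 5% of cells with the most UMIs, or proliferating-like cells as well, were added after the data were seen. Removal of Scrublet doublets was not run. Of the other values of single genes, 594 stayed within the counting interval or on the same side and 122 moved. Among ratios under 1.5-fold, settings other than weighting clusters alike also turned signs, and not all such turns are listed. Myb of the TCRgd genotypes turned in 5 of 11 settings, Gata3 of the TCRgd genotypes in 4 of 11 and Bach2 of the TCRgd Tcf7WT split in 5 of 7. Intervals cover counting error only, and Myb, Bach2 and all TCRgd Tcf7 splits are limited by low counts.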

Other observations

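Id1, an inhibitor of E proteins like Id3, stood at 7.98 CPM in TCRb Tcf7WT, 2.61 in TCRb Tcf7KO, 11.8 in TCRgd Tcf7WT and 35.9 in TCRgd Tcf7KO. Id2, the main Id gene of effector T cells, stood at 465, 417, 662 and 589 CPM in the same order and was higher in TCRgd cells within both genotypes (0.51 and 0.50), opposite to Id3. The part of epithelial-like cells in the Id1 values was not tested.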
